A study of Mus musculus with 24 samples.

Results

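The transcripts of 9 enzymes that make serine and carry its carbon into the folate cycle were followed in mouse pancreas organoids: Phgdh, Psat1, Psph, Shmt1, Shmt2, Mthfd1, Mthfd2, Mthfd1l and Aldh1l2. The members were chosen by symbol among the 19895 entries of the expression table. Of the 9, 8 had an entry of their own, and all 8 were counted in every library. Shmt2 was present only in an entry joint with its neighbour Ndufa4l2, with which it overlaps by 32 bases at the 3′ ends on opposite strands, so the values of that entry cannot be assigned to either gene and are given separately as the Shmt2 joint entry. N organoids were grown from the ducts of wildtype C57Bl/6J mice. KP organoids were grown from pancreatic tumours of an engineered mouse model on the C57Bl/6J background that carries p53 R172H, switched on by a Cre that the Pdx1 promoter drives in the developing pancreas. Both were treated for 1 h with vehicle (DMSO) or with 10 nM CR-31, a rocaglate that inhibits the RNA helicase eIF4A of the cap-binding complex. Each lysate gave a library of polysome-associated mRNA (bound by 3 or more ribosomes) and a library of total mRNA, with 3 replicates in each of the 8 groups. Because the sources used here do not say how many mice the 3 replicates of a group came from, a p-value measures only the spread between these samples.

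Serine is made from the glycolytic intermediate 3-phosphoglycerate in consecutive steps, which Phgdh (oxidation), Psat1 (transamination) and Psph (dephosphorylation) catalyse. Serine hydroxymethyltransferases then pass a carbon of serine to tetrahydrofolate, Shmt1 in the cytosol and Shmt2 in mitochondria. In mitochondria, Mthfd2 oxidizes that unit and Mthfd1l then releases it as formate, or Aldh1l2 oxidizes it to CO2 with production of NADPH. The formate returns to the cytosol, where the trifunctional enzyme Mthfd1 makes it available for purines and thymidylate. Several of these genes are known targets of the stress-induced transcription factor ATF4.

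The counted reads of a library ranged from 47308461 to 267463046, and a member had between 78 (Aldh1l2) and 140682 (Phgdh) of them. No sequencing lane named by the labels held both organoid types, so the effects of lane and of organoid type cannot be told apart. All 9 duct and epithelial markers were counted, with a summed RPKM of 4410 to 8160 in N and 3380 to 5980 in KP libraries. The summed RPKM did not exceed 0.241 for acinar, 0.143 for endocrine, 0.146 for fibroblast and 0.0942 for endothelial markers, and it reached 19.6 in N and 5.01 in KP libraries for the 5 immune markers. Cpa1 (acinar), Ins1, Ins2 and Gcg (endocrine) and Col3a1 and Lum (fibroblast) were listed at 0 in every library. In N replicate 3, the changes between CR-31 and vehicle libraries ran in opposite directions in the 2 fractions (r = -0.67 over 12209 entries, against 0.40 and 0.20 in N replicates 1 and 2). The polysome library labelled vehicle of that replicate lay nearer to the total library labelled CR-31 (SD of the log2 difference 0.45) than to that labelled vehicle (0.72), and the polysome library labelled CR-31 nearer to the total library labelled vehicle (0.49 against 0.75). In KP replicate 1 the same correlation was -0.29, and the total library labelled CR-31 lay far from both polysome libraries (0.73 and 0.83, against 0.46 and 0.45 for the total library labelled vehicle). Some of the results that rest on these replicates are therefore also given without them, and the others are given with all replicates only.

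Per transcript length, the serine synthesis enzymes Phgdh and Psat1 were the most abundant members. In total mRNA of vehicle-treated KP organoids, the mean RPKM was 342 ± 81.8 (SD, n = 3) for Phgdh, 257 ± 17.7 for Psat1, 67.1 ± 11.4 for Mthfd2 and 54.1 ± 12.2 for Psph. The cytosolic Shmt1 and Mthfd1 followed at 22 ± 4.67 and 19.8 ± 2.62 RPKM, then the mitochondrial Mthfd1l at 10.4 ± 1.17 and Aldh1l2 at 2.88 ± 1.78. The ranges of the neighbours Mthfd2 and Psph, and of Shmt1 and Mthfd1, overlapped, whereas those of Phgdh and Psat1, Psph and Shmt1, Mthfd1 and Mthfd1l, and Mthfd1l and Aldh1l2 did not. In vehicle-treated N organoids the order of the means was the same, from 228 ± 128 RPKM for Phgdh and 117 ± 70.4 for Psat1 to 1.31 ± 1.00 for Aldh1l2, but the ranges of all neighbours in it overlapped except those of Mthfd1l and Aldh1l2. Their library-by-library levels, in CPM (counts scaled to a common library size with TMM factors), are shown in the plot of CPM by library.

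**Figure D1:**
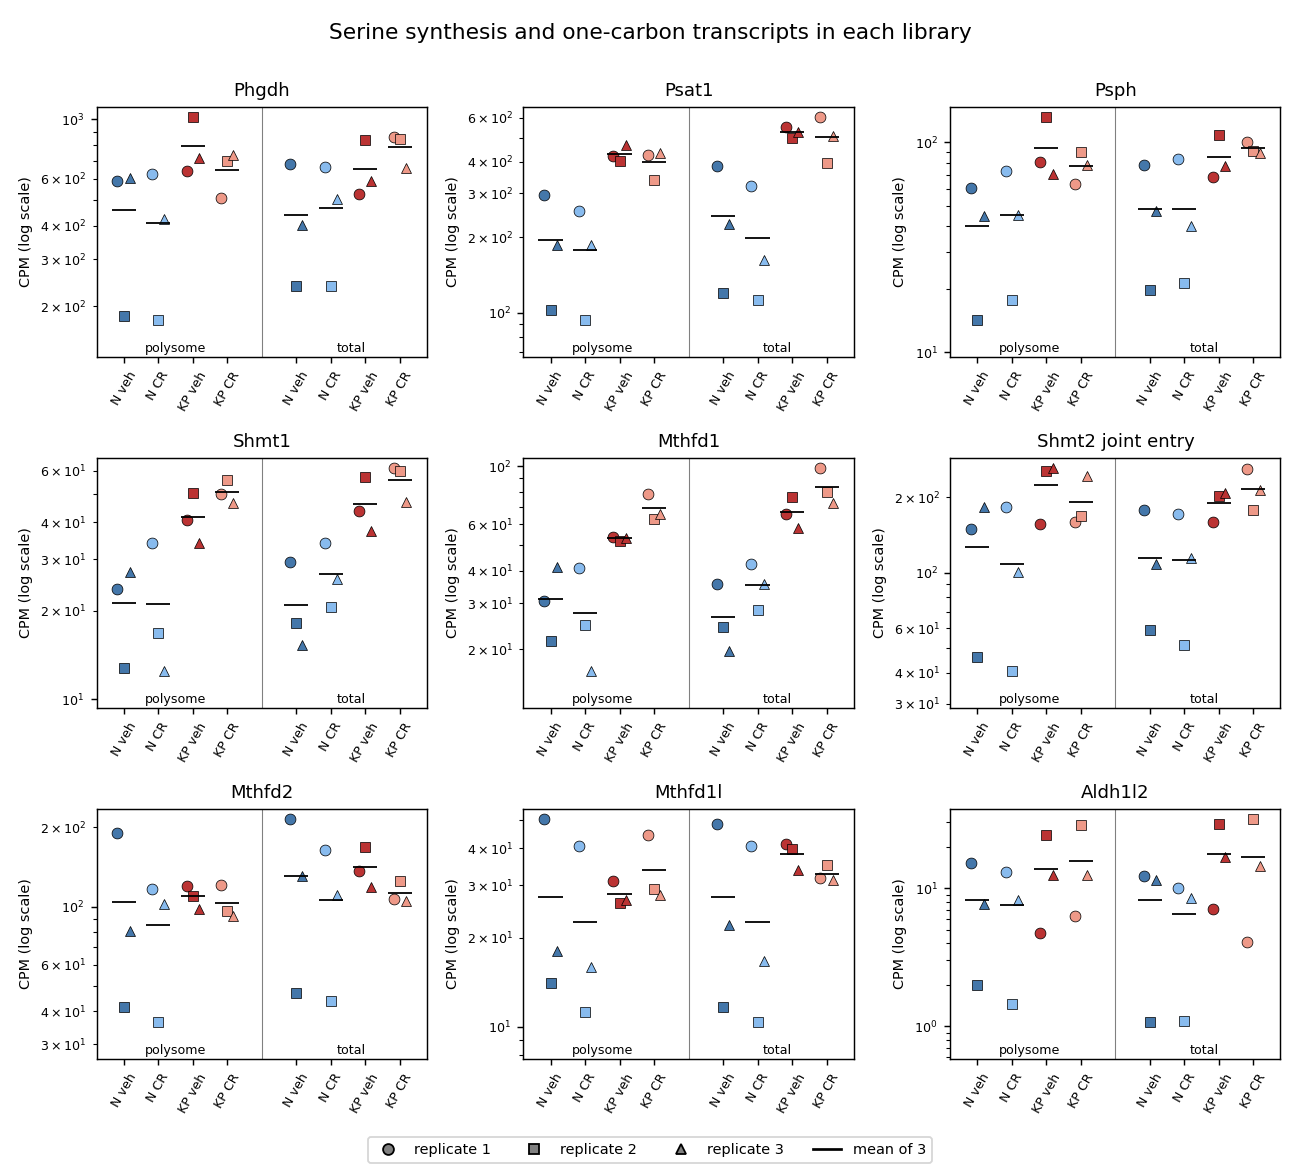
CPM of each member (log axis) in the 24 libraries, by organoid type and treatment, with polysome-associated mRNA on the left and total mRNA on the right of each panel. Points are single libraries, with the replicate number as symbol, and bars are means of 3. In N organoids replicate 2 (squares) is the lowest of its group for Phgdh, Psat1, Psph, the Shmt2 joint entry, Mthfd2, Mthfd1l and Aldh1l2 in both fractions and both treatments.

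The comparison of KP with N organoids treated with vehicle asked which of these transcripts differ between tumour and normal duct cells. In polysome-associated mRNA, Psat1, Psph, Shmt1 and Mthfd1 were higher in KP organoids, by 1.73- to 2.41-fold, and Phgdh missed the threshold. These 4 of 8 members passed an adjusted p of 0.25 (edgeR's quasi-likelihood test with Benjamini-Hochberg adjustment over 12209 entries, n = 3 each), beside 20.4% of all entries tested that were called higher. All 8 had a positive log2 fold change, with a median of 0.80, where the median over all entries was -0.05. In total mRNA, 3 of 8 were called higher (Psat1, Shmt1 and Mthfd1), beside 13% of all entries. The mitochondrial enzymes Mthfd2, Mthfd1l and Aldh1l2 were called in neither fraction. Single cultures moved these counts. Without the N vehicle lysate of replicate 2 they were 2 in both fractions, beside 15.7% of all entries called higher in polysome-associated and 9.02% in total mRNA. Without that of replicate 1 they were 7 and 6, beside 20.6% and 15.4%. Without both lysates of N replicate 3, 5 of 8 were called higher in polysome-associated mRNA, beside 26.3% of all entries, and Shmt1 and Mthfd1 alone in total mRNA, beside 8.85%. A model with a replicate block, nested in the organoid type, takes the spread between cultures out of the error. There all 8 were called higher in both fractions, beside 33.1% and 27.8% of all entries. KP and N organoids are different cultures, so that spread belongs in the error of this comparison. The calls of this model are therefore no valid test of a difference between the organoid types. All 3 KP values lay above all 3 N values for 5 of 8 members in polysome-associated and 3 of 8 in total mRNA, beside 16.6% and 15.9% of all entries. These comparisons are drawn in the plot of log2 fold changes.

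Phgdh (chr3:98313170-98339990, minus strand; GENCODE M21 on GRCm38, as for all coordinates here), which catalyses the committed step, had a polysome-associated level of 587, 184 and 602 CPM in N and 639, 1020 and 719 CPM in KP organoids with vehicle. The 3 KP values lay above the 3 N values, but the N values differed among themselves by more than the groups did. Its log2 fold change was 0.81 ± 0.471 (SE), with an adjusted p of 0.252 from edgeR's quasi-likelihood test. The call lay at the threshold. RLE normalization gave an adjusted p of 0.245, and DESeq2 gave 0.198. These 2 fits each called 5 members in this fraction, beside 20.6% and 20.9% of all entries called higher. Upper-quartile normalization and no filter on low counts each called 4, as the first fit did, beside 17.3% and 15.5%. In total mRNA the values were 680, 238 and 402 CPM in N and 527, 839 and 586 CPM in KP organoids, and the groups overlapped (log2 fold change 0.57 ± 0.399, adjusted p = 0.417 from the same test).

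Psat1 (chr19:15904678-15947337, minus strand), the aminotransferase that follows, separated the organoid types in both fractions. Its polysome-associated level was 295, 103 and 186 CPM in N and 423, 405 and 467 CPM in KP organoids with vehicle, and no values overlapped. The log2 fold change was 1.18 ± 0.386 (edgeR adjusted p = 0.0586). In total mRNA, 385, 120 and 227 CPM in N stood against 549, 496 and 527 CPM in KP organoids. The difference there was 1.11 ± 0.419 (edgeR adjusted p = 0.126), and without N replicate 3 it was 1.07 ± 0.516 with an adjusted p of 0.297.

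Psph (chr5:129765558-129787449, minus strand) completes the pathway. It had 60.7, 14.3 and 44.5 CPM in polysome-associated mRNA of N and 80.3, 132 and 70.8 CPM of KP organoids with vehicle. The groups did not overlap, and the log2 fold change of 1.27 ± 0.526 was the largest among the members in this fraction (edgeR adjusted p = 0.118). In total mRNA, N replicate 1 (77.7 CPM) lay within the KP range of 68.8 to 108 CPM, and the difference was not called (0.82 ± 0.488, edgeR adjusted p = 0.336).

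The cytosolic pair Shmt1 and Mthfd1 was called in both fractions. Shmt1 (chr11:60788104-60811718, minus strand), which transfers a carbon of serine to folate, had 29.3, 18.2 and 15.3 CPM in total mRNA of N and 43.8, 57.3 and 37.4 CPM of KP organoids with vehicle. Every KP value lay above every N value, with a log2 fold change of 1.14 ± 0.280 (edgeR adjusted p = 0.0291). In polysome-associated mRNA the N values of 23.7, 12.8 and 27.2 CPM again lay below the KP values of 40.8, 50.5 and 34 CPM (1.00 ± 0.357, edgeR adjusted p = 0.0773).

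Mthfd1 (chr12:76255298-76319803, plus strand) had the smallest adjusted p of the members in total mRNA. There 35.5, 24.3 and 19.8 CPM in N stood against 65.6, 76.3 and 58.1 CPM in KP organoids, a log2 fold change of 1.33 ± 0.246 (edgeR adjusted p = 0.00947). In polysome-associated mRNA the 3 KP values of 53.8, 51.9 and 53.5 CPM were nearly equal, and the N values of 30.5, 21.6 and 41.4 CPM lay below them (0.79 ± 0.305, edgeR adjusted p = 0.0964). The highest of these N values was that of replicate 3. Without N replicate 3 the polysome-associated difference was 1.06 ± 0.238 and the total difference 1.17 ± 0.265.

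None of the mitochondrial enzymes passed the test. Mthfd2 (chr6:83305691-83325908, minus strand), the dehydrogenase and cyclohydrolase, had 191, 41.5 and 80.6 CPM in polysome-associated mRNA of N and 120, 110 and 98 CPM of KP organoids with vehicle. The KP values lay inside the N range. KP over N was 0.09 ± 0.490 on the log2 scale in the polysome fraction and 0.11 ± 0.491 in total mRNA, with edgeR adjusted p-values of 0.918 and 0.921.

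Mthfd1l (chr10:3973118-4167081, plus strand), the formate-producing synthetase, had 50.2, 14.1 and 18 CPM in polysome-associated mRNA of N and 31.1, 26.2 and 26.8 CPM of KP organoids with vehicle. Here too a single N replicate lay above and the others lay below the KP range. KP over N was 0.06 ± 0.504 in the polysome fraction and 0.49 ± 0.499 in total mRNA, and neither was called by edgeR. Standard errors of this size do not show that Mthfd2 or Mthfd1l had equal levels in both organoid types.

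Aldh1l2 (chr10:83487450-83534140, minus strand), which makes mitochondrial NADPH, was the least abundant and most variable member. Its polysome-associated level was 15.2, 2.00 and 7.65 CPM in N and 4.73, 24.5 and 12.5 CPM in KP organoids with vehicle. The groups overlapped over most of their range, and neither the log2 fold change of 0.76 ± 0.866 nor that of 1.12 ± 0.958 in total mRNA was called by edgeR. The Shmt2 joint entry (Shmt2 at chr10:127517123-127522444, minus strand, and Ndufa4l2 at chr10:127514967-127517154, plus strand) had 149, 46.2 and 183 CPM in N and 156, 254 and 261 CPM in KP organoids. On the log2 scale KP exceeded N by 0.85 ± 0.530 in the polysome fraction and by 0.73 ± 0.425 in total mRNA, and edgeR called neither (adjusted p = 0.290 and 0.326).

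**Figure D2:**
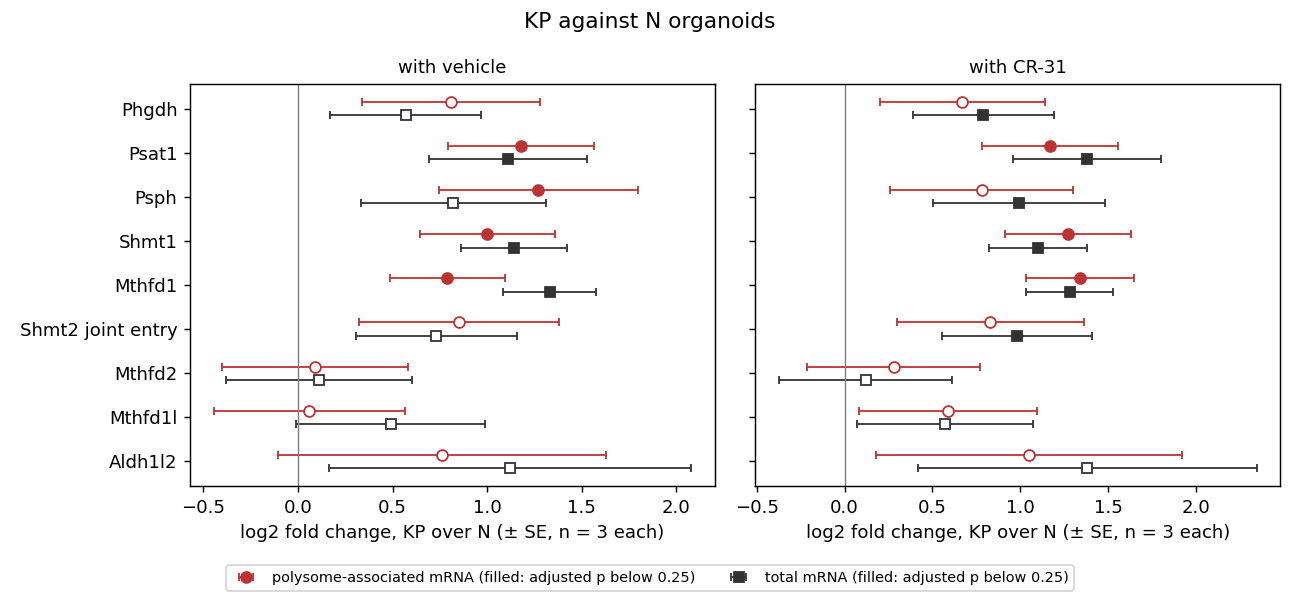
Log2 fold change of KP over N organoids (x axis, ± SE from edgeR, n = 3 each) for each member with vehicle (left) and with CR-31 (right), in polysome-associated (circles) and total mRNA (squares). Filled symbols passed an adjusted p of 0.25. Psat1, Shmt1 and Mthfd1 are filled in all 4 comparisons, and Mthfd2, Mthfd1l and Aldh1l2 in none.

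The same comparison after CR-31 found Psat1, Shmt1 and Mthfd1 higher in polysome-associated mRNA, 3 of 8 members beside 11.1% of all entries, and these together with Phgdh and Psph in total mRNA, 5 of 8 beside 19.1%. With CR-31, Mthfd1 had 41.1, 24.9 and 16.6 CPM in polysome-associated mRNA of N and 78.6, 63.2 and 65.5 CPM of KP organoids, a log2 fold change of 1.34 ± 0.309 (edgeR adjusted p = 0.0287). Shmt1 and Psat1 differed by 1.27 ± 0.359 and 1.17 ± 0.386 in that fraction. In total mRNA with CR-31, Phgdh differed by 0.79 ± 0.4 and Psph by 0.99 ± 0.489, and the Shmt2 joint entry was called at 0.98 ± 0.427 (edgeR adjusted p = 0.149). Without KP replicate 1, 2 of 8 members were called in polysome-associated mRNA (Shmt1 and Mthfd1), beside 3.29% of all entries, and without N replicate 1 there were 6, beside 14.6%. Without KP replicate 1, 3 of 8 were called in total mRNA (Psat1, Shmt1 and Mthfd1), beside 7.13% of all entries, and the Shmt2 joint entry was not (0.81 ± 0.503). Without N replicate 3 the count was 3 in total mRNA as well, beside 13.8%. With the replicate block it was 8 in both fractions, beside 28.9% and 31.8%, again with the spread between cultures left out of the error. The vehicle and CR-31 comparisons use different libraries of same-numbered cultures, so they are not independent.

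Markers of cell state and cell type moved in the same comparisons. Of 6 markers (Mki67, Top2a, Cdk1, Ccnb1, Mcm2 and Pcna), 5 were called higher in KP than in N organoids in polysome-associated and 6 in total mRNA with vehicle, beside 20.4% and 13% of all entries, with medians of 0.88 and 1.49 on the log2 scale, and their summed RPKM was 97.8 to 230 in N and 241 to 444 in KP libraries. Of the 9 duct and epithelial markers, 5 were called lower and 1 higher in polysome-associated mRNA, with Sox9 at -1.52 ± 0.320 and Cdh1 at -1.11 ± 0.326, and 4 lower in total mRNA, beside 22.9% and 15.2% of all entries called lower. Col1a1, the only fibroblast marker tested, and Cd68, the only immune marker tested, were called lower in both fractions (-2.74 and -1.21 in polysome-associated mRNA). The Col1a1 change lay near the floor, as all fibroblast markers together had at most 0.146 RPKM in N and 0.051 RPKM in KP libraries. The part of these markers in the higher levels of Shmt1, Mthfd1 and Psat1 was not tested. In bulk organoids, more cells of a kind and more RNA per cell cannot be told apart.

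The N cultures differed among themselves in this pathway more than the KP cultures did. In N organoids, replicate 2 was below the mean of the other 2 replicates for all 8 members in each of its 4 libraries, which was the case for 23.5% of all entries, and replicate 1 was above that mean for all 8 members in all 4 libraries, as were 35.6% of all entries. Averaged over its 4 libraries, replicate 2 had 0.129-fold the Aldh1l2 level of the others, 0.317-fold for Mthfd2, 0.319-fold for Psph, 0.377-fold for Phgdh, 0.415-fold for Mthfd1l and 0.441-fold for Psat1. The cytosolic Shmt1 and Mthfd1 deviated less, at 0.705-fold and 0.789-fold. The median deviation of the members in this replicate was -1.34 on the log2 scale, against 0.00 for all entries.

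Within groups, the SD of log2 CPM of all 8 members was above the median of all entries in N organoids (0.42), ranging from 0.48 for Mthfd1 to 1.03 for Psph and Mthfd2 and 1.75 for Aldh1l2, while in KP organoids only Psph and Aldh1l2 were above the median of 0.31. Mthfd2 had an SD of 0.19 and Psat1 of 0.19 in KP organoids. In KP organoids only Aldh1l2 had a wide spread, with an SD of 1.22, and replicate 1 had 0.272-fold and replicate 2 3.27-fold the level of the others. The spread between organoid types was not tested.

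The genes that moved with N replicate 2 included the list of ATF4 and other ATF4 target genes. Of its 13 members tested, 12 were lower in replicate 2 than in the other N replicates, beside 49.8% of all entries, with a median deviation of -0.88, and 11 were higher in replicate 1, beside 50.5%, with a median of 0.81. The folate cycle and transport list had medians of 0.05 and 0.14 in the same replicates, and proliferation markers of 0.19 and 0.23. Of the glycine cleavage and serine use list, 8 of 10 were lower in replicate 2 (median -0.17, and 0.13 in replicate 1), and of the methionine cycle list 7 of 11 (median -0.15, and 0.41 in replicate 1). For the ATF4 list the median was 0.42 in N replicate 3, and -0.13, 0.43 and -0.27 in KP replicates 1, 2 and 3. The serine and one-carbon members had medians of 0.17 in N replicate 3, and 0.06, 0.23 and -0.18 in the KP replicates. The part of the sequencing lane in these deviations was not tested.

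**Figure D3:**
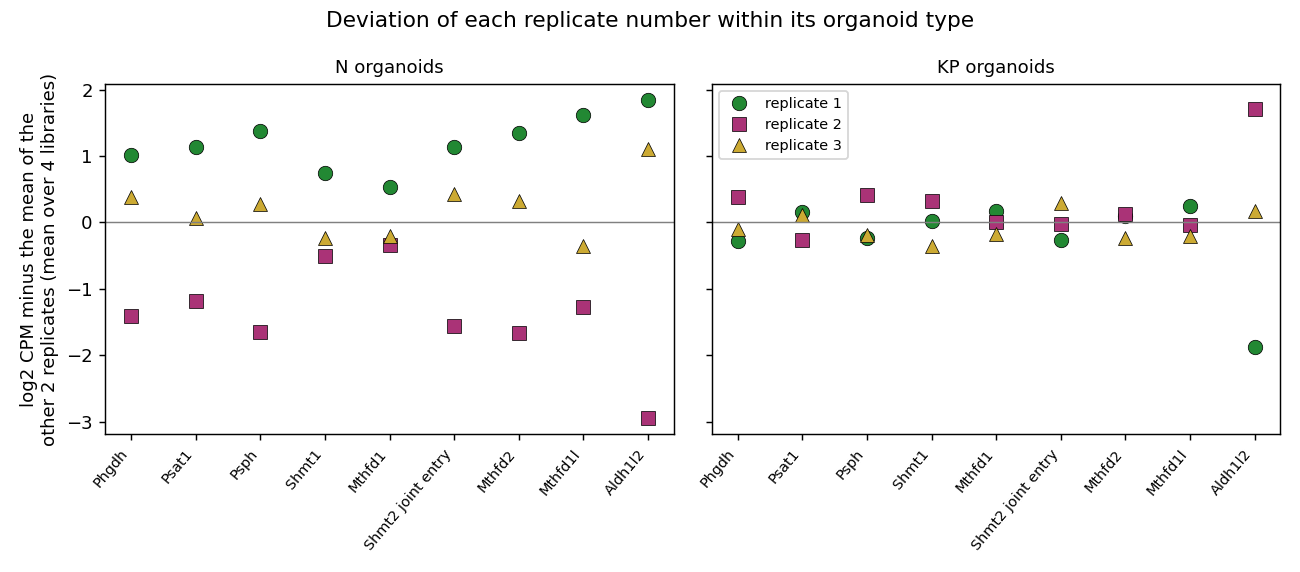
Log2 CPM of each replicate number minus the mean of the other 2 replicates of its group (y axis, averaged over the 4 libraries of that number) for each member, in N (left) and KP organoids (right). In N organoids all 9 entries lie above 0 in replicate 1 and below 0 in replicate 2, from -0.34 for Mthfd1 to -2.95 for Aldh1l2. In KP organoids the entries other than Aldh1l2 lie within -0.35 and 0.41.

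No member was called for a change after 1 h of CR-31 in either organoid type. In KP organoids, 0 of 8 were called in polysome-associated and 0 of 8 in total mRNA (edgeR's quasi-likelihood test), beside 0% of all entries, and 0 of 8 had an unadjusted p under 0.05, where 422 and 117 of all 12209 entries had one. In N organoids the counts were again 0 of 8 in both fractions beside 0%, and 0 of 8 had an unadjusted p under 0.05, where 49 and 322 of all entries had one. These fits do not use the pairing of same-numbered vehicle and CR-31 libraries. With the replicate block, which does, 2537 entries (20.8%) were called in KP polysome-associated mRNA, 0 in KP total and N polysome-associated mRNA and 8 in N total mRNA, and 0 of 8 members were called in each. DESeq2 called 0 members in these 4 comparisons, and at most 15 entries in any of them. In the test of the difference in CR-31 effect between KP and N organoids, edgeR and DESeq2 called 0 of 8 members in each fraction (0% of all entries by edgeR, with an unadjusted p under 0.05 in 272 and 18 entries, none of them a member).

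The estimates in KP polysome-associated mRNA ran from -0.29 to 0.38 on the log2 scale. They were -0.29 ± 0.468 for Phgdh, -0.29 ± 0.519 for Psph and -0.11 ± 0.381 for Psat1, and 0.38 ± 0.304 for Mthfd1, 0.28 ± 0.353 for Shmt1 and 0.27 ± 0.504 for Mthfd1l. Mthfd2, Aldh1l2 and the Shmt2 joint entry had estimates of -0.09 ± 0.490, 0.18 ± 0.861 and -0.23 ± 0.527. For Mthfd1, each KP replicate had more with CR-31 than with vehicle in this fraction, 1.46-, 1.22- and 1.23-fold, and in total mRNA, 1.5-, 1.04- and 1.25-fold. For Phgdh the polysome-associated ratios were 0.795, 0.686 and 1.02, and the total ratios 1.63, 1.01 and 1.12. Shmt1 was also above its vehicle level in 3 of 3 KP replicates in both fractions, a pattern that 6.65% of all entries shared. In total mRNA, Mthfd2 and Mthfd1l were below vehicle in all 6 same-numbered pairs of both organoid types, as were 5.93% of all entries, and Shmt1 and Mthfd1 were above vehicle in all 6, as were 7.26%. Both tallies rest on the labels of N replicate 3, where the CR-31 changes of the 2 fractions ran in opposite directions. Its total ratios were 0.757 for Mthfd1l, 1.68 for Shmt1 and 1.8 for Mthfd1. In the 3 KP pairs alone, 13.5% of all entries were below vehicle in each and 14.2% above. The Mthfd2 ratios were 0.784, 0.745 and 0.887 in KP and 0.762, 0.928 and 0.843 in N organoids. Mthfd1l had 0.768, 0.881 and 0.924 in total but 1.43, 1.11 and 1.04 in polysome-associated mRNA of KP organoids, where 31.3% of all entries were above vehicle in 3 of 3. In total mRNA of KP organoids the estimates were 0.36 ± 0.242 for Mthfd1 and 0.31 ± 0.398 for Phgdh, and without KP replicate 1 they were 0.18 ± 0.3 and 0.07 ± 0.528. The other members lay between -0.30 (Mthfd2) and 0.31 (Shmt1) there.

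In N organoids the polysome-associated estimates for CR-31 ran from -0.27 (Mthfd2 and Mthfd1l) to 0.20 (Psph), with -0.15 for Phgdh, -0.10 for Psat1, 0.00 for Shmt1, -0.17 for Mthfd1, -0.11 for Aldh1l2 and -0.21 for the Shmt2 joint entry, and with standard errors of 0.304 (Mthfd1) to 0.863 (Aldh1l2). In total mRNA they ran from -0.33 (Aldh1l2) to 0.41 (Mthfd1). Mthfd1 and Shmt1 show what N replicate 3 contributed. In polysome-associated mRNA, CR-31 over vehicle was 1.35, 1.15 and 0.401 for Mthfd1 and 1.43, 1.32 and 0.461 for Shmt1, whereas in total mRNA it was 1.19, 1.16 and 1.80 for Mthfd1 and 1.16, 1.13 and 1.68 for Shmt1. In replicate 3 alone the fractions went opposite ways. Without N replicate 3 Mthfd1 differed by 0.36 ± 0.252, in place of -0.17 ± 0.304, in polysome-associated and 0.23 ± 0.280 in total mRNA, and Shmt1 by 0.50 ± 0.369 and 0.19 ± 0.329, none of them called by edgeR.

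Translational efficiency, the level in polysome-associated relative to total mRNA, was compared in a single edgeR model with the lysate as a block. The test called 0 of 8 members in each of the 5 comparisons, beside 0% of all entries, and 0 of 8 had an unadjusted p under 0.05. Between 357 and 1414 of all entries had one in the 5 comparisons. For KP against N organoids with vehicle, DESeq2 called 364 entries, and a moderated regression of the polysome level on the total level called 1320, none of them a member. The estimates for KP against N organoids with vehicle were 0.44 ± 0.224 for Psph, -0.54 ± 0.339 for Mthfd1, -0.46 ± 0.227 for Mthfd1l and -0.60 ± 0.341 for Aldh1l2. The other members lay between -0.14 (Shmt1) and 0.29 (Phgdh). The directions for Mthfd1 and Shmt1 depended on the model, since the regression gave 0.6 and 0.27.

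N replicate 3 bore on this comparison. The polysome over total ratio of Mthfd1 in N organoids was 0.859, 0.891 and 2.09 with vehicle and 0.973, 0.882 and 0.466 with CR-31, and all 6 KP lysates lay between 0.680 and 0.920. Shmt1 had the same pattern, with 1.78 and 0.490 in the lysates of N replicate 3 and 0.701 to 1.00 in the other N lysates. Phgdh had 1.21, 1.22 and 1.23 in KP organoids with vehicle, and 0.863, 0.774 and 1.5 in N organoids with vehicle. Without N replicate 3, an alternative chosen after seeing the data, 4 of 8 members were called, beside 35.3% of all entries: Phgdh (0.61 ± 0.233) and Psph (0.59 ± 0.210) higher in KP organoids, and Mthfd1l (-0.57 ± 0.222) and Aldh1l2 (-0.96 ± 0.274) lower. Their edgeR adjusted p-values were 0.128, 0.114, 0.133 and 0.0849. The share of entries called rose from 0% to 35.3% with the same step, and which of the fits is nearer to these cultures was not tested.

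For CR-31 against vehicle in KP organoids, the efficiency estimates were -0.57 ± 0.274 for Phgdh, -0.42 ± 0.224 for Psph, 0.47 ± 0.227 for Mthfd1l and 0.50 ± 0.336 for Aldh1l2 (edgeR adjusted p = 0.519 for all 4). The other members lay between -0.40 (the Shmt2 joint entry) and 0.23 (Mthfd2). The Phgdh ratio was 1.21, 1.22 and 1.23 with vehicle and 0.592, 0.828 and 1.12 with CR-31. The lowest of these, and the highest Mthfd1l ratio of 1.4, came from the CR-31 lysate of KP replicate 1, the one whose total library lay apart. Without KP replicate 1 the estimates were -0.34 ± 0.316 for Phgdh and 0.26 ± 0.229 for Mthfd1l.

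**Figure D4:**
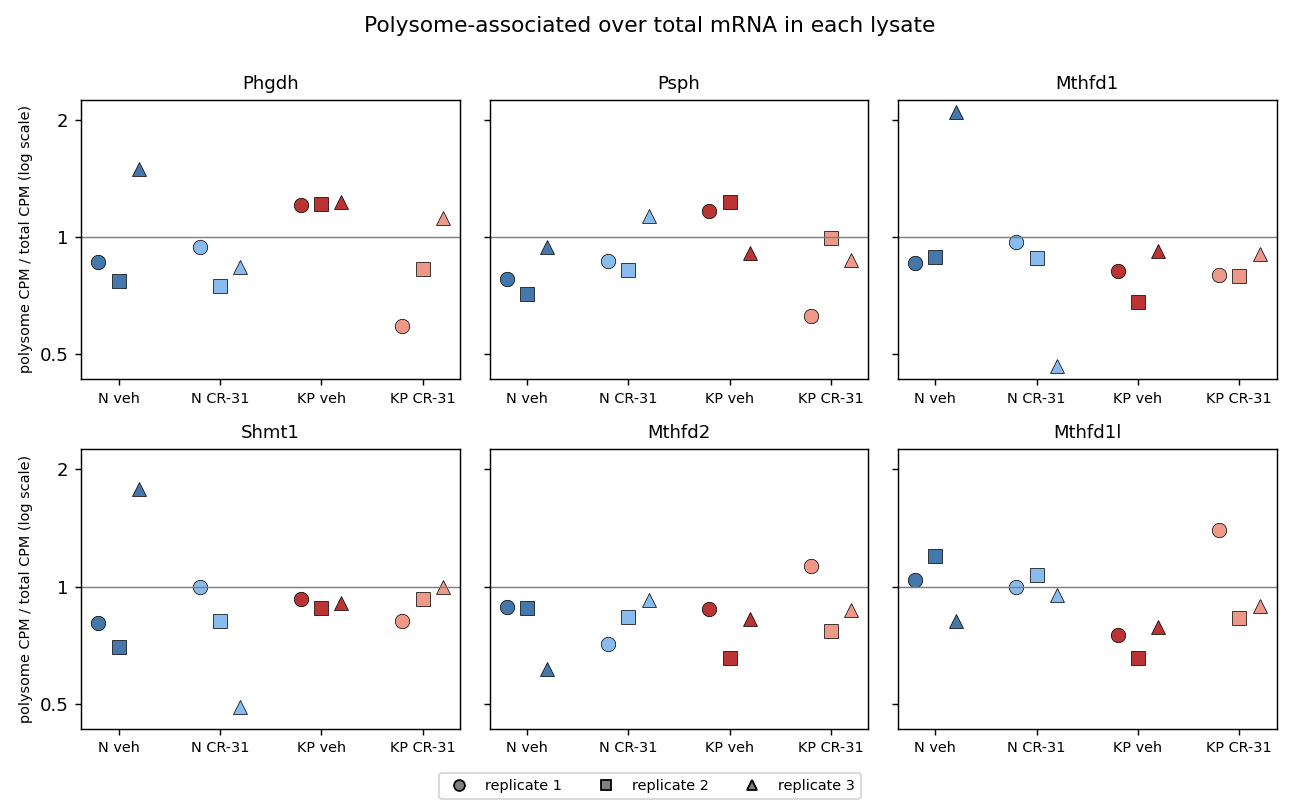
Polysome-associated CPM over total CPM (log axis) in each of the 12 lysates for 6 members, by organoid type and treatment, with the replicate number as symbol. For Mthfd1 and Shmt1 the lysates of N replicate 3 (triangles) are the highest with vehicle and the lowest with CR-31. For Phgdh the 3 KP vehicle lysates lie at 1.21 to 1.23.

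Over all 12 lysates, polysome-associated was compared with total mRNA. Psat1 (-0.26 ± 0.0694), Mthfd2 (-0.28 ± 0.0788), Psph (-0.14 ± 0.0791) and Mthfd1 (-0.20 ± 0.120) were called lower by edgeR, 4 of 8 beside 27.7% of all entries. Without N replicate 3, 6 of 8 were called in either direction, beside 57.6% of all entries, and without its vehicle lysate alone 5 were called beside 54.1%. Leaving out other lysates gave 2 to 4, such as 2 beside 44.4% without N vehicle replicate 1 and 4 beside 44.7% without N CR-31 replicate 1. The replicate block gave 3 beside 45.2%, and no filter on low counts gave 2 beside 32.3%. In the first fit 49.3% of all entries were called in either direction. The ratio was below 1 in 11 of 12 lysates for Psat1, Mthfd1 and Mthfd2, and in 7 of 12 for Phgdh and Aldh1l2. The ratio is relative to all mRNAs of a library, so it is no share of molecules on ribosomes.

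Neighbouring enzymes were described by the same calls. Of the folate cycle and transport genes, 13 of 17 were tested, and 3 were called higher and 2 lower in polysome-associated, and 5 higher and 1 lower in total mRNA of KP against N organoids with vehicle (median 0.22 and 0.40). Of all entries, 20.4% were called higher and 22.9% lower in the polysome fraction, and 13% and 15.2% in total mRNA, against which the counts of this list and of the lists that follow are to be read. The folate carriers Slc46a1 and Slc19a1 were higher in polysome-associated mRNA by 1.36 ± 0.249 and 1.35 ± 0.396. Slc46a1 had 13.5, 18.4 and 15.1 CPM in N and 28.2, 53.5 and 37.1 CPM in KP organoids. Tyms, the thymidylate synthase that uses the cytosolic unit, was higher by 1.25 ± 0.346 in polysome-associated and 1.08 ± 0.362 in total mRNA. Folr2 was called lower in polysome-associated mRNA (-2.39 ± 0.782) at levels of at most 0.336 CPM.

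Of the glycine cleavage and serine use genes, 10 of 14 were tested, and 4 were called higher and 3 lower in polysome-associated and 3 higher and 2 lower in total mRNA. Amt, which takes part in glycine cleavage, was higher by 2.01 ± 0.785 in polysome-associated mRNA, from a mean of 1.55 CPM in N to 6.15 CPM in KP organoids. Gcsh, of the same complex, was higher by 0.93 ± 0.287. Dld, a further subunit, was called lower (-0.80 ± 0.247, edgeR adjusted p = 0.0473) and is named after its values were seen. Sfxn3, a mitochondrial serine carrier, was lower in both fractions (-1.02 ± 0.249 and -1.20 ± 0.176), with 116, 120 and 117 CPM in total mRNA of N and 41.2, 58.1 and 53.8 CPM of KP organoids. Sfxn1, of the same family and list, was called higher in both fractions (0.48 ± 0.225 and 0.54 ± 0.178). It is likewise named after its values were seen.

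Of the methionine cycle and transsulfuration genes, 11 of 13 were tested, with 2 called higher and 2 lower in polysome-associated and 3 higher and 0 lower in total mRNA. Gnmt, which methylates glycine, was higher by 2.77 ± 0.439 and 2.44 ± 0.442, from means of 1.18 and 1.13 CPM in N to 7.95 and 6.16 CPM in KP organoids. Ahcy, which clears S-adenosylhomocysteine, was higher by 1.05 ± 0.210 and 0.72 ± 0.245. Mtr, the methionine synthase, was higher in total mRNA (0.96 ± 0.334), and Ahcyl2 was lower in polysome-associated mRNA (-1.02 ± 0.403).

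Of the ATF4 list, 13 of 14 genes were tested. In polysome-associated mRNA 2 were called higher (Atf5, 1.22 ± 0.682, and Eif4ebp1, 1.19 ± 0.487) and 1 lower (Ddit4, -1.77 ± 0.438), and in total mRNA 0 were higher and 1 was lower (Ddit4, -1.47 ± 0.394). The medians were -0.21 and -0.14, and Atf4 itself differed by -0.43 ± 0.298 and -0.40 ± 0.296, not called by edgeR. In the edgeR fit without the replicate block, 0 genes of these 4 lists were called for an effect of CR-31, beside 0% of all entries.

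The members fell into differing patterns over the 24 libraries, given as correlations of log2 CPM, which share lysates, lanes and organoid type and carry no test. Shmt1 and Mthfd1 were each other's nearest gene in the table (r = 0.97). Phgdh was nearest to Psph (0.97) and the Shmt2 joint entry (0.96), and Psph to Phgdh and to Asns (0.97), the asparagine synthetase. Mthfd1 correlated least with Mthfd2 (0.40) and Aldh1l2 (0.48). The genes nearest to the others were Cmss1 and Tmem97 for Psat1 (0.96), Emp1 and Sh3bp5 for Mthfd2 (0.93 and 0.92), Lrp8 and Iars for Mthfd1l (0.97 and 0.95) and Col26a1 and Pycr1 for Aldh1l2 (0.93 and 0.91).

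The 5′-UTRs of the members, in the transcripts of GENCODE M21 linked to the RefSeq accessions of the table, ranged from 77 nt for Mthfd2 to 822 nt for Psph, where the median of the 12011 entries with one was 191 nt. Psph alone lay near the upper end, at the percentile 97.6 of length, with 4 upstream ATGs, and Psat1 had 1. The other 6 had 0, while 53.9% of all entries had at least 1. Mthfd2 had the highest GC content, 77.9%, against a median of 64.3%. In the RefSeq promoters of GRCm38.p6, from 250 bases before to 50 after the start of transcription, 8 of the 9 genes matched, and Aldh1l2 was not found there. Neither the core of the composite element bound by C/EBP and ATF factors (TGATGNAA, both strands) nor the E-box CACGTG was found in them, motifs that 3.97% and 7.15% of all 32851 promoters hold. This says only that these letters are not in this window.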

How the data were processed

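Per the labels and the methods of the study, RNA of pooled gradient fractions with 3 or more ribosomes, and of the same lysates before the gradient, was sequenced. The authors aligned the reads with HISAT2, discarded reads with several matches, and deposited raw counts and RPKM values per RefSeq gene. The submitters' processing notes name HISAT2, SAMtools and hg38, although the genes are those of mouse, so the build used for the counts is not known here. The RPKM values deposited by the authors served only to compare levels between genes.

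Counts were tested with edgeR 4.0.16 in R 4.3.3 (TMM normalization, quasi-likelihood, entries counted in all 24 libraries), separately for each fraction in a model of 4 groups. Translational efficiency was the interaction of fraction and group over all libraries, with the lysate as block. The threshold was an adjusted p of 0.25 (Benjamini-Hochberg over 12209 entries), taken from the study's methods whose further filters on effect size and regression slope were not applied, and limma 3.58.1 served the regression alternative. CPM refer to TMM-scaled library sizes, and log2 CPM used a prior count of 0.5. The scripts were tested on simulated counts without a spread between cultures, which checks the code and not the power or error rate in these data. Alternatives were RLE and upper-quartile normalization, no filter, DESeq2 1.42.0, a replicate block, lane, a moderated regression of the polysome level on the total level, an adjusted p of 0.05 and leaving out lysates. Same-numbered vehicle and CR-31 libraries of an organoid type deviated together (r = 0.45 to 0.89), which pairs them, while N and KP libraries of a number did not (r from -0.17 to 0.28).

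The members and gene lists were chosen with earlier results of these data known. All members are named in the comparisons of KP with N organoids with vehicle in each fraction and of CR-31 with vehicle in polysome-associated mRNA. In the remaining comparisons only some are named. Of each list the text names the 3 genes with the largest change among those called in KP against N with vehicle. Dld and Sfxn1 are named in addition. Other settings were chosen after seeing the data: leaving out both lysates of a replicate number and testing only entries of a single symbol. A further item of the KP genotype is not reported here.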

Additional observations from a re-analysis of the deposited data

How the results depend on the processing

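Of the values of single members under the alternatives, 1633 kept their direction and their side of the threshold, 65 passed it only under the alternative, 75 no longer passed it and 57 changed sign. At an adjusted p of 0.05, the number of members called for KP against N organoids was 0 with vehicle and 1 with CR-31 in polysome-associated mRNA and 2 with vehicle and 2 with CR-31 in total mRNA, and 2 for polysome-associated against total mRNA, where the absence of a filter also gave 2. The share of all entries called at 0.05 was not computed, so these counts have no background to be read against. The replicate block within each organoid type gave 8 members in all 4 comparisons of KP with N organoids, where it leaves the spread between cultures out of the error. It gave 0 for each effect of CR-31, as without the block, although the share of all entries called in KP polysome-associated mRNA went from 0% to 20.8%. For polysome-associated against total mRNA the block gave 3. Leaving out lysates gave 2 to 7 members for KP against N with vehicle and 2 to 6 with CR-31 in polysome-associated mRNA, 2 to 6 and 3 to 6 in total mRNA, 0 to 4 for translational efficiency with vehicle and 2 to 6 for polysome-associated against total mRNA. The share of all entries called higher moved as well. With vehicle it was 15.7% and 9.02% without N vehicle replicate 2, and 20.6% and 15.4% without N vehicle replicate 1, in polysome-associated and total mRNA. With CR-31 it was 4.1% in polysome-associated mRNA without KP CR-31 replicate 1, and 12.6% without N CR-31 replicate 1. In total mRNA it was 15.6% without N CR-31 replicate 2 and 20.3% without N CR-31 replicate 1.

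Among the values compared, signs changed as follows. Leaving out lysates, KP over N ranged from -0.29 to 0.88 for Mthfd2 and from -0.26 to 0.85 for Mthfd1l in polysome-associated mRNA with vehicle, and for Mthfd2 from -0.29 to 0.66 in total mRNA with vehicle, -0.08 to 0.58 in polysome-associated mRNA with CR-31 and -0.25 to 0.59 in total mRNA with CR-31. CR-31 over vehicle in polysome-associated mRNA of KP organoids ranged from -0.47 to 0.02 for Psph, 0 to 0.39 for Mthfd1l and -0.6 to 0.86 for Aldh1l2. With lane as a term it was 0 for Mthfd2 and -0.25 for Aldh1l2. In N organoids it ranged from -0.61 to 0.21 for Phgdh, -0.47 to 0.32 for Psat1, -0.34 to 0.63 for Psph, -0.53 to 0.5 for Shmt1, -0.83 to 0.21 for the Shmt2 joint entry, -0.6 to 0.36 for Mthfd1, -0.66 to 0.49 for Mthfd2, -1.02 to 0.5 for Mthfd1l and -0.79 to 0.67 for Aldh1l2. For Shmt1 it was 0 with RLE normalization and DESeq2, -0.02 with upper-quartile normalization and -0.03 with the replicate block. The moderated regression turned the translational efficiency estimate of Mthfd1 for KP against N with vehicle from -0.54 to 0.6 and that of Shmt1 from -0.14 to 0.27, and leaving out lysates gave -0.4 to 0.3 for Shmt1. The causes were not tested. The Aldh1l2 counts, down to 78 in a library, were the lowest.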
